A study of Mus musculus with 10 samples.

Results

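Troponin is the calcium switch of striated muscle, and its 8 genes in the mouse were followed here in the embryonic heart with and without *Nos1ap*. The genes were taken by symbol from the authors' table of 23195 genes: *Tnnt1*, *Tnnt2* and *Tnnt3* encode troponin T, *Tnni1*, *Tnni2* and *Tnni3* encode troponin I, and *Tnnc1* and *Tnnc2* encode troponin C. All 8 were listed. *Tnnt2* and *Tnni3* are the cardiac isoforms, *Tnnt1* and *Tnni1* the slow skeletal isoforms, and *Tnnt3*, *Tnni2* and *Tnnc2* the fast skeletal isoforms, whereas *Tnnc1* serves both cardiac and slow skeletal muscle.

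Hearts of male embryos at embryonic day 13.5 were profiled by stranded polyA RNA-seq, 5 of them wild type and 5 *Nos1ap* null, with the strain given as C57BL6/J for both groups. The null embryos were homozygous for the tm1d allele, in which 1 exon of *Nos1ap* is deleted in every cell and the lacZ and neo cassettes are absent. That allele came from embryonic stem cells of the C57BL/6N strain by way of Flpe and CMV-Cre lines, and the mice carrying it were backcrossed to C57BL/6J and intercrossed. The comparison asks which transcripts of the heart change when *Nos1ap* is lost, and no other treatment or allele is given for either group.

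The troponin complex sits on the thin filament at regular intervals along tropomyosin. Troponin C binds calcium, troponin I holds the filament inhibited until calcium binds, and troponin T anchors the complex to tropomyosin. The embryonic heart is known to use slow skeletal troponin I, which is replaced by the cardiac form around and after birth, and cardiac troponin T is among the earliest contractile genes of the heart tube. The fast skeletal genes are known from fast-twitch limb and trunk muscle.

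The values are normalized counts, that is, read pairs assigned to a gene divided by the size factor of the library. The table gives only the authors' mean of each group. Whole counts of single libraries were derived from these means where the mean was below 1000 normalized counts, which held for *Tnni2*, *Tnnt3* and *Tnnc2* but not for the 5 more abundant troponin genes. Libraries are numbered from 1 to 5 within a group by descending size factor, and an estimated 11328000 to 14023000 read pairs per library fell on genes. *Nos1ap*, the targeted gene, had 126 to 161 normalized counts in the wild-type libraries and 31.1 to 44.4 in the null libraries. Its limma log2 difference was -1.83 (SE 0.12, adjusted p = 8.5e-09). The means taken as wild type and as null thus matched their genotypes, but the derived libraries carry no sample labels to check. All 15 cardiomyocyte markers were abundant, from a wild-type mean of 1688 for *Nkx2-5*, a transcription factor of the heart, to 128162 for *Myh7*, the slow myosin heavy chain.

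A pair of libraries stood apart. Wild-type library 3 had a sum of 1733 normalized counts over 6 neuronal markers, against 96.2 to 117 in the other wild-type libraries and 89.5 to 112 in the null libraries. The same library had the highest sum of 21 skeletal muscle markers, 552, against 346 to 406 in the other 9 libraries. Of these 21 genes, 10 were highest there, and *Myh3* alone had 103 there against at most 4.35 elsewhere. It also had the lung epithelium markers at 229, summed over 6 genes of which each was highest there, against 169 in the next library. That list held 8 genes, and its members *Sftpc* and *Nkx2-1* were not in the authors' table. Of the 6, only *Krt8* had a mean of at least 10, with 141 in wild type. Null library 2 had the highest sum of 5 erythroid markers, 728, against 115 to 365 in the other 9. Correlations and spreads over single libraries are therefore also given without this pair, a choice made after the data were seen.

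The sequence before the transcription start is shown for the leading gene of each subunit, and for *Tnnc2* because it was the least abundant of the 8 genes while its paralog *Tnnc1* was among the most abundant. Each entry runs from 250 bases before to 50 bases after a start listed by RefSeq on GRCm38.p6, read in the direction of transcription. The entries are *Tnnt2* at chr1:135836084-135836383 on the plus strand, *Tnni1* at chr1:135799171-135799470 on the plus strand, *Tnnc1* at chr14:31208062-31208361 on the plus strand and *Tnnc2* at chr2:164779685-164779984 on the minus strand. *Tnnt2* and *Tnni1* each have 2 listed starts, of which the first is printed. Capitals mark matches on either strand to TATAAA, a strict form of the TATA box whose variants were not searched. Also marked are CATTCC (the M-CAT element, which TEAD factors bind), GATAA (which the factors of that family bind) and the E-box, CANNTG.
Tnnt2: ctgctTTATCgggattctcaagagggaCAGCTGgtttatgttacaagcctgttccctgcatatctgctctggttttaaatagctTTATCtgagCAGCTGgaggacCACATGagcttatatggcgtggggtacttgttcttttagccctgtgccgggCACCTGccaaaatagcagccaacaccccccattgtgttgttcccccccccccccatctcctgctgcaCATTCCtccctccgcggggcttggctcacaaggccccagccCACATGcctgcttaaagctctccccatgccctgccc
Tnni1: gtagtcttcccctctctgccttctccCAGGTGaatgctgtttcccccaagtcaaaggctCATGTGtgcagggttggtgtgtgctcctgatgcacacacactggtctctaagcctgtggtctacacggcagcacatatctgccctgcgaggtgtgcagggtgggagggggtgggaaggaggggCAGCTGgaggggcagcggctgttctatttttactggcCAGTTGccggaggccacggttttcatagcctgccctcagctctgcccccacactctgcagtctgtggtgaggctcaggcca
Tnnc1: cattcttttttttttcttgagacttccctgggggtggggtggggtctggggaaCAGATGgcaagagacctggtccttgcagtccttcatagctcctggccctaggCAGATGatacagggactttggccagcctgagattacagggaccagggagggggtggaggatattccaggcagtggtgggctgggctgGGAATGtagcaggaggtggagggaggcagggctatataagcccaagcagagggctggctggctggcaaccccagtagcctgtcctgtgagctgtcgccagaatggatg
Tnnc2: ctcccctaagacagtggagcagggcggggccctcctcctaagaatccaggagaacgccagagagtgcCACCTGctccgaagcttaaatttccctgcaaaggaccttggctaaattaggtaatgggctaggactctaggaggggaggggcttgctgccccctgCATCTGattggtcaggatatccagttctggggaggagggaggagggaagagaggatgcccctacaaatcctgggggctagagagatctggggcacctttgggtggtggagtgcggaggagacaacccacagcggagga

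The printed *Tnnt2* promoter held 5 E-boxes, 2 GATAA matches and 1 M-CAT element. The E-box reads the same on both strands and was counted once, and no 2 matches in these windows overlapped. *Tnnc1* held 2 E-boxes and 1 M-CAT element, whereas *Tnni1* and *Tnnc2* held E-boxes only, 4 and 2 of them. The *Tnnt1* promoter held the single TATAAA among the 6 genes with a listed promoter, with its first base 30 bases before the start, and the *Tnni3* promoter held 2 GATAA matches and 1 E-box. Neither the MEF2 site nor the CArG box was matched in any of these windows. Of all 32851 RefSeq promoter entries of this length, 72.3% held an E-box, 25.4% GATAA, 14.7% CATTCC, 13.6% TATAAA, 3.19% a MEF2 site and 1.63% a CArG box. *Tnni2* and *Tnnt3* were without an entry.

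Cardiac and slow skeletal troponin transcripts were abundant in the hearts of both genotypes, and fast skeletal transcripts were scarce. Per kilobase (kb) of all annotated exon, *Tnnc1* had a wild-type mean of 9917 normalized counts and a null mean of 9858. *Tnnt2* followed with 4842 and 4857 per kb, *Tnni1* with 3947 and 3871, *Tnni3* with 2798 and 2743, and *Tnnt1* with 1434 and 1512. Below these came the fast skeletal genes *Tnni2* with 141 and 148 per kb, *Tnnt3* with 38.7 and 47.4, and *Tnnc2* with 2.03 and 1.04. The order was the same in both genotypes. The 3 fast skeletal genes together made up 0.784% of the summed troponin level per kb in wild type and 0.853% in null. The 2 slow skeletal genes made up 23.3% and 23.4%, and the 2 cardiac genes 33.04% and 32.99%. *Tnnc1*, of both cardiac and slow skeletal muscle, made up the remaining 42.9% and 42.8%. With the longest coding transcript as length, the cardiac genes made up 55.6% and 55.7%, and the slow skeletal genes 22.7% and 22.6%. On that scale *Tnnc1* made up 21.2% and 21.1%, and the fast skeletal genes 0.493% and 0.533%.

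The place of *Tnnt2* in this order depended on the length used. All annotated exons of *Tnnt2* cover 7752 bases, whereas its longest coding transcript has 1200. Divided by the longest coding transcript, *Tnnt2* led with 31277 normalized counts per kb in wild type, ahead of *Tnnc1* with 14319, *Tnni1* with 12355, *Tnni3* with 6329 and *Tnnt1* with 2985. The fast skeletal genes kept the last places, with 274 for *Tnni2*, 56.8 for *Tnnt3* and 2.32 for *Tnnc2*. No spread between libraries was derived for the 5 abundant genes, so whether neighbours among them differ beyond it was not tested. Among the fast skeletal genes, *Tnni2* exceeded *Tnnt3* per kb of exon in each of the 10 libraries.

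**Figure D1:**
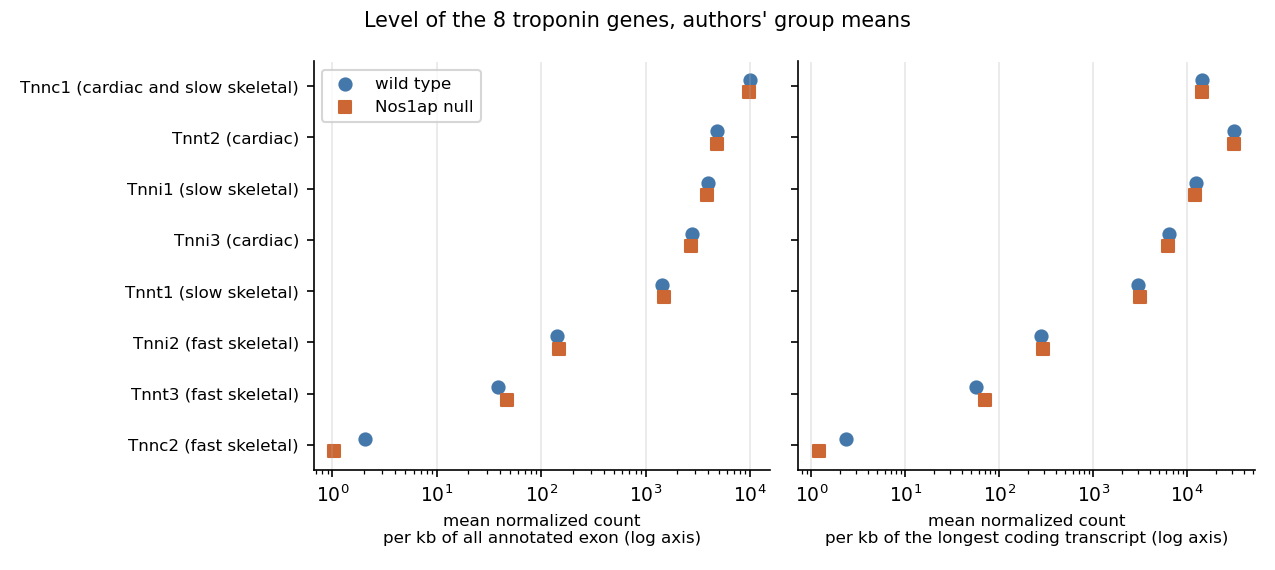
The authors' mean normalized count of each troponin gene per kb, on a log axis, in wild type (circles) and *Nos1ap* null (squares), divided by all annotated exon on the left and by the longest coding transcript on the right. The 5 cardiac and slow skeletal genes lie above 1000 per kb and the 3 fast skeletal genes below 300 per kb on both scales, and *Tnnt2* takes the first place only on the right.

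Within troponin I, the slow skeletal isoform was the major transcript. *Tnni1* made up 57.3% of troponin I transcripts per kb of exon in wild type and 57.2% in null, *Tnni3* made up 40.6% in both, and *Tnni2* 2.04% and 2.19%. The ratio of *Tnni1* to *Tnni3* was 1.41 in both genotypes. It was 1.95 in both when the longest coding transcript set the length, so *Tnni1* led on either scale. These are shares of the authors' means and have no spread.

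Within troponin T, the cardiac isoform was the major transcript. *Tnnt2* made up 76.7% of troponin T transcripts in wild type and 75.7% in null, and *Tnnt1* 22.7% and 23.6%. *Tnnt3* made up 0.613% and 0.739%. With the longest coding transcript as length, the share of *Tnnt2* was 91.1% and 90.7%, that of *Tnnt1* 8.70% and 9.10%, and that of *Tnnt3* 0.166% and 0.201%. The share of *Tnnt1* thus moved by more with the choice of length than between genotypes.

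Within troponin C, nearly all transcripts came from *Tnnc1*. Its share was 99.98% in wild type and 99.99% in null per kb of exon. The fast skeletal *Tnnc2* had the remaining 0.0205% and 0.0106%. The total of the troponin T genes was 0.637 times that of the troponin C genes in wild type per kb of exon, but 2.40 times with the longest coding transcript as length, so no order of the 3 subunits held on both scales.

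**Figure D2:**
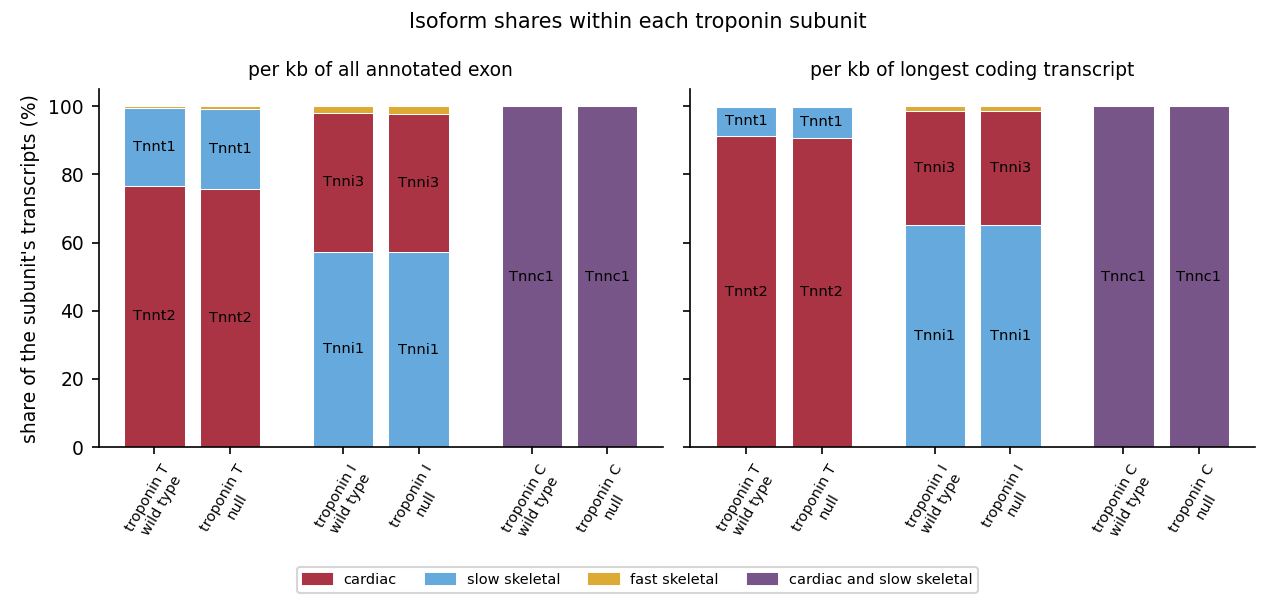
Share of each isoform, in percent, among the transcripts of troponin T, troponin I and troponin C in wild type and *Nos1ap* null, from the authors' means per kb of all annotated exon (left) and of the longest coding transcript (right). Bars are stacked to 100%, colours give the isoform class, and within each subunit the wild-type and null bars differ by less than 1 percentage point for every isoform.

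The 5 abundant troponin genes differed little between genotypes. *Tnnt2* had a wild-type mean of 37532 normalized counts and a null mean of 37652, a log2 ratio of null over wild type of 0.0046. *Tnnc1* had means of 10324 and 10262, a log2 ratio of -0.0086. Both counting intervals included 0, from -0.0046 to 0.014 for *Tnnt2* and from -0.026 to 0.009 for *Tnnc1*. A counting interval covers the error of counting reads at a 95% level and leaves out the spread between embryos.

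Both abundant troponin I genes had slightly lower means in null. *Tnni1* had means of 14209 and 13935, a log2 ratio of -0.028 (counting interval -0.043 to -0.013). *Tnni3* had means of 5772 and 5659, also a log2 ratio of -0.028 (-0.052 to -0.0048). *Tnnt1* had the largest ratio of the 5, with means of 3161 and 3333 and a log2 ratio of 0.076 (0.045 to 0.11). Among 2622 protein-coding genes whose mean was 1000 or more, the median absolute log2 ratio was 0.029, and 9.12% had one larger than that of *Tnnt1*, against 51.6% for *Tnni1* and 51.0% for *Tnni3*. All 5 troponin genes had an absolute log2 ratio below 0.1, as did 95.7% of these 2622 genes.

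No spread between libraries was available for these 5 genes, and less abundant genes give a scale. These were 2232 protein-coding genes with a mean from 500 to 1000 and recovered counts. Their within-group SD between libraries had a median of 0.076 on the log2 scale, with a median of 0.056 for the part that counting alone gives. In this range counts are recovered only where libraries lie near equal expression. Genes with a wide spread can thus be missing, and the scale may be too low. Counting adds less to the spread of more abundant genes, so for them the scale may also be too high. The part left after counting had a median of 0.052. These are SDs of single libraries, and a difference between means of 5 libraries has a smaller error. The ratios of the abundant troponin genes were not tested against this scale. In these whole hearts, fewer cells of a type and less RNA per cell cannot be told apart.

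**Figure D3:**
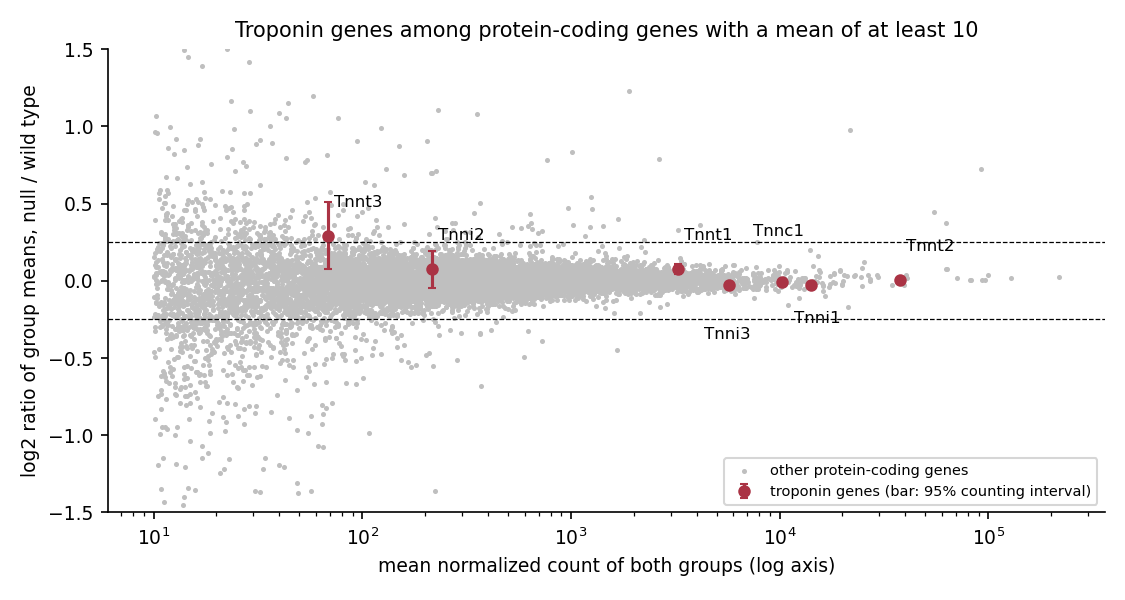
Log2 ratio of the authors' group means, null over wild type, against the mean normalized count of both groups on a log axis, for troponin genes (red, with 95% counting intervals) and other protein-coding genes with a mean of at least 10 (grey). Dashed lines mark an absolute log2 ratio of 0.25, 55 genes lie beyond the vertical limits of 1.5, and of the 7 troponin genes shown only *Tnnt3* lies past a dashed line.

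Of the 7 troponin genes with a mean of at least 10, 1 had a log2 ratio of group means past 0.25 in either direction, against 6.67% of 13292 protein-coding genes. That gene was *Tnnt3*, at 0.29, and 2.4% of all genes were past 0.25 in its direction. The median log2 ratio of the 7 was 0.0046, beside -0.00095 over all these genes. For 2 of the 7, *Tnni2* and *Tnnt3*, single libraries could be tested, and limma called neither at an adjusted p of 0.05. It called 3 of 10332 genes, or 0.029%. The unadjusted p was also above 0.05 for both, where 3.53% of all genes were below it, and the voom form of limma called neither.

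*Tnnt3*, the fast skeletal troponin T, had 74.8, 55.2, 81.4, 55.7 and 39.3 normalized counts in wild-type libraries 1 to 5, and 66.6, 112.6, 67.5, 75.2 and 53.4 in null libraries 1 to 5. Null library 2 was above every wild-type library and the other 4 null libraries lay within the wild-type range, so the groups overlapped, while those of 0.785% of 10325 genes did not. The means were 61.3 ± 16.9 (SD, n = 5) in wild type and 75.1 ± 22.4 (SD, n = 5) in null. The difference of 13.8 was smaller than the SD of either group (exact two-sided permutation test, p = 0.341, where 5 against 5 allows no p below 0.00794). The limma log2 difference was 0.29 (SE 0.21, 95% interval -0.16 to 0.73, adjusted p = 0.998). Without null library 2 the log2 difference was 0.13 (limma, adjusted p = 0.934), without wild-type library 5 it was 0.14, and without wild-type library 3 and null library 2 together it was 0.24 (limma, adjusted p = 0.881).

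*Tnni2*, the fast skeletal troponin I, varied less. Its normalized counts were 210.5, 183.9, 229.0, 234.3 and 194.5 in wild-type libraries 1 to 5, and 188.1, 260.4, 195.6, 232.0 and 232.0 in null libraries 1 to 5. Null library 2 was again the highest of all 10, and the other 4 null libraries lay within the wild-type range, so the groups overlapped. The means were 210.4 ± 21.6 (SD, n = 5) and 221.6 ± 29.7 (SD, n = 5), and the difference of 11.2 was within the SD of both groups (exact two-sided permutation test, p = 0.484). The limma log2 difference was 0.07 (SE 0.091, 95% interval -0.12 to 0.26, adjusted p = 0.998). Without null library 2 it was 0.0095, and without wild-type library 3 and null library 2 together it was 0.041 (limma, adjusted p = 0.966).

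*Tnnc2*, the fast skeletal troponin C, was close to undetected. It had 0, 1, 5, 2 and 0 read pairs in wild-type libraries 1 to 5, and 0, 0, 2, 1 and 1 in null libraries 1 to 5. Of the 8 read pairs in wild type, 5 came from library 3, the library with the high neuronal and skeletal muscle markers. The means were 1.62 ± 2.12 (SD, n = 5) and 0.836 ± 0.853 (SD, n = 5) normalized counts, and the difference of -0.788 did not exceed the spread (exact two-sided permutation test, p = 0.643). Without wild-type library 3 the difference was 0.0779, in the opposite direction. The log2 ratio of the means was -0.96 with a counting interval of -2.66 to 0.75, so no difference was detectable at this depth.

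**Figure D4:**
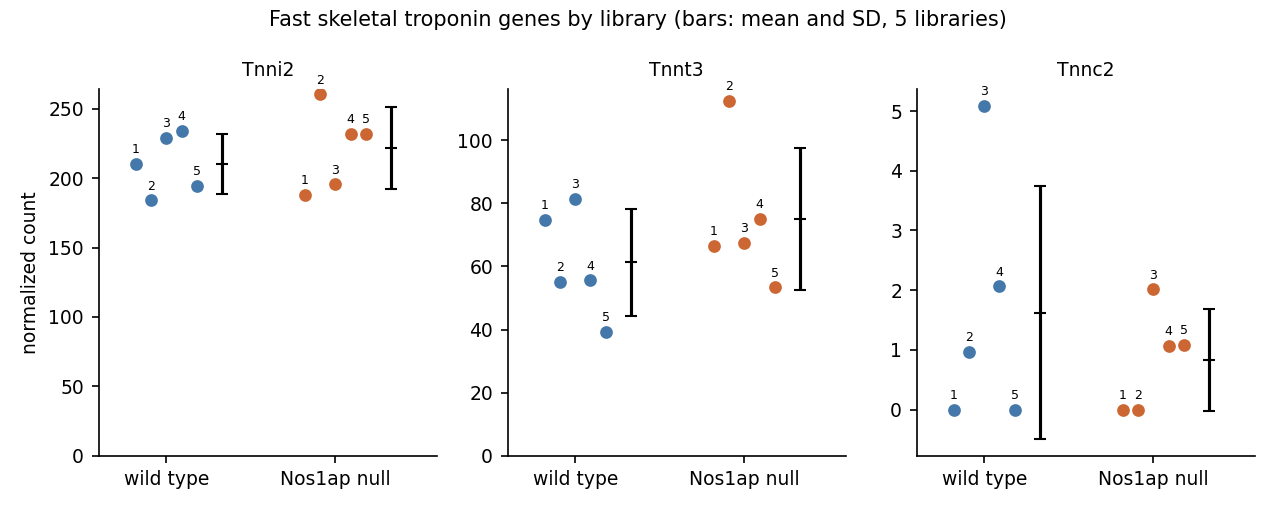
Normalized counts of *Tnni2*, *Tnnt3* and *Tnnc2* in each library, numbered by descending size factor within wild type and *Nos1ap* null, with the mean and SD of 5 libraries beside the points. The groups overlap for all 3 genes, null library 2 is the highest point for *Tnni2* and *Tnnt3*, and wild-type library 3 is the highest for *Tnnc2*.

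*Tnnt3* and *Tnni2* were set beside genes of like abundance for their spread between libraries. The within-group SD of *Tnnt3* was 0.40 on the log2 scale, above that of 90.9% of 584 genes within 1.2-fold of its mean, whose median was 0.21. That of *Tnni2* was 0.17, above 87.1% of 1145 genes, whose median was 0.12. Without wild-type library 3 and null library 2 the SDs were 0.30 and 0.15 (shares of 89.6% and 85.5%). The ratio of *Tnni2* to *Tnnt3* per kb of exon was between 2.97 and 5.23 in the wild-type libraries and between 2.45 and 4.60 in the null libraries. Its means of 3.83 ± 0.987 (SD, n = 5) and 3.27 ± 0.801 (SD, n = 5) differed by less than the SD of either group (exact two-sided permutation test, p = 0.325), as did those without the pair, 4.04 ± 0.997 (SD, n = 4) and 3.48 ± 0.756 (SD, n = 4; exact permutation p = 0.371).

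Most markers of skeletal muscle were at low levels. Of 25 markers, 23 were listed and 13 had a mean of at least 10. *Casq1*, a calcium store protein, and *Myl1*, a light chain of fast muscle myosin, were the exceptions, with wild-type means of 2108 and 1539 normalized counts, too abundant for the sum over single libraries. *Myod1*, a master regulator of the myogenic lineage, had 13.2 normalized counts in wild-type library 3 and 0 to 1.80 in the other 9 libraries. *Myh3*, the embryonic myosin heavy chain, had 103 in wild-type library 3 and 0.968 to 4.35 in the others. *Tnnt3* was the highest of the wild-type libraries there, with 81.4, and *Tnni2* was not. *Mylpf*, the fast regulatory myosin light chain, was between 39.7 and 67.2 in wild type and between 32.3 and 66.4 in null, and *Actn3*, the fast-fibre alpha-actinin, between 41.6 and 87.0 and between 52.3 and 83.5. Across the 10 libraries the Pearson correlation of log2 values with the sum of the skeletal muscle markers was 0.50 for *Tnnt3* and 0.27 for *Tnni2*. The correlation with the sum of 5 erythroid markers was 0.56 for *Tnnt3* and 0.83 for *Tnni2*. Without wild-type library 3 and null library 2 the correlations with the skeletal muscle sum were 0.66 and 0.070, and those with the erythroid sum 0.22 and 0.82. All points of a correlation share the library and its size factor, and the highest erythroid sum, the highest *Tnni2* and the highest *Tnnt3* were all in null library 2. The part of these markers in the values of *Tnni2* and *Tnnt3* was not tested.

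**Figure D5:**
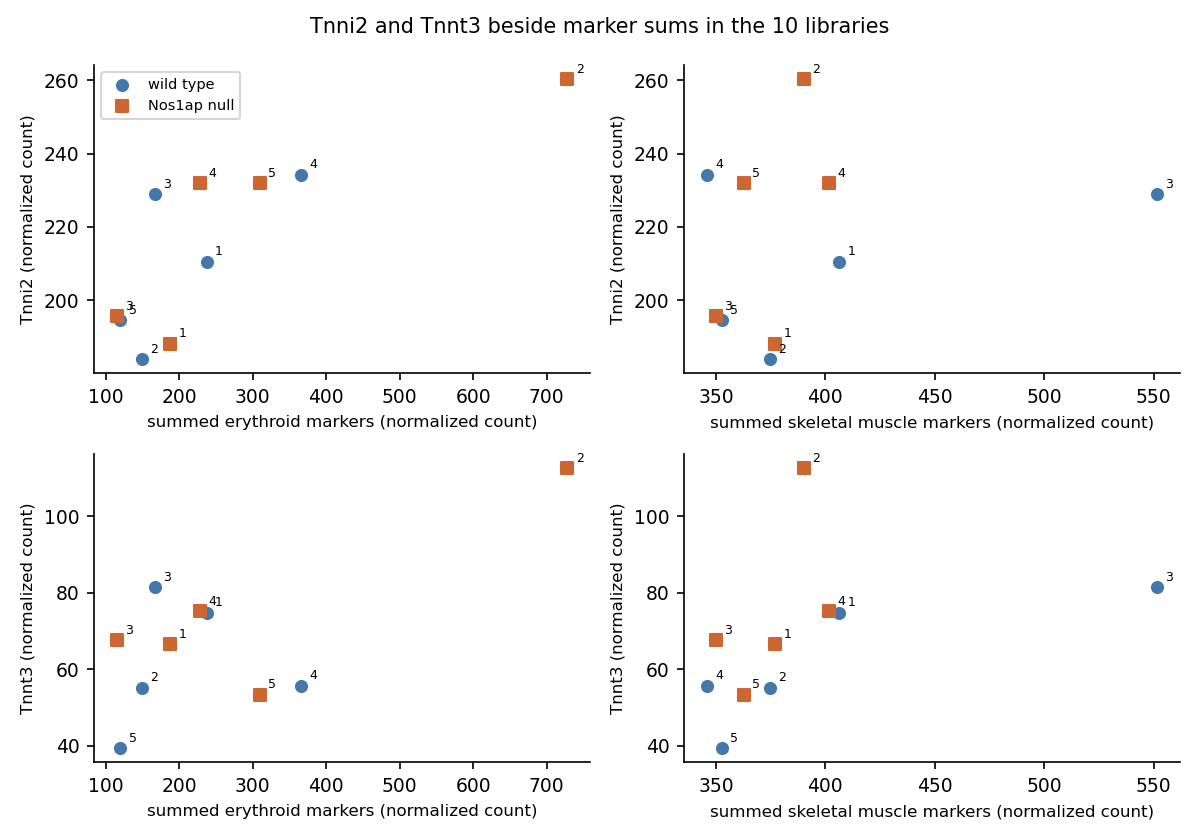
Normalized counts of *Tnni2* (top) and *Tnnt3* (bottom) against the summed normalized counts of 5 erythroid markers (left) and 21 skeletal muscle markers (right) in the 10 libraries, wild type as circles and *Nos1ap* null as squares, with library numbers. Null library 2 is at the upper right of both erythroid plots, and wild-type library 3 is at the far right of both skeletal muscle plots without the highest *Tnni2* or *Tnnt3*.

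The genes most like *Tnni2* over the 10 libraries, by Pearson correlation of log2 normalized counts among 10324 protein-coding genes, were *Gfi1b* (0.93), *Crtc1* (0.92), *Prkab1* (0.92), *Treml2* (0.92) and *H2-T23* (0.91). *Gfi1b* encodes a repressor of the erythroid and megakaryocytic lineages, *Crtc1* a coactivator of CREB, *Prkab1* a subunit of the AMP-activated kinase and *H2-T23* a nonclassical class I molecule. The genes most like *Tnnt3* were *Sergef* (0.92), *Sh3tc2* (0.92), *Col7a1* (0.90), *Apela* (0.90) and *Cox18* (0.89). *Apela* encodes a peptide ligand of the apelin receptor, *Col7a1* the collagen of anchoring fibrils and *Cox18* an assembly factor of cytochrome c oxidase. These are the highest of many correlations over 10 points. No gene of the troponin family or of the skeletal muscle list was among them, and the correlation of *Tnni2* with *Tnnt3* was 0.57, or 0.17 without wild-type library 3 and null library 2. Without that pair the correlations named here were 0.87 to 0.92 for *Tnni2* and 0.80 to 0.98 for *Tnnt3*.

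Of the 8 troponin genes, 6 lie in pairs in the mouse genome. On GRCm38, *Tnni1* (chr1:135779434-135810989) and *Tnnt2* (chr1:135836354-135852260) lie on the plus strand with 25364 bases between them, and *Tnnt2* was 1.23 times *Tnni1* per kb of exon in wild type and 1.25 times in null. *Lad1* lies in that gap with a wild-type mean of 52.5 normalized counts and a null mean of 53.0. *Tnnt1* (chr7:4504570-4516382) and *Tnni3* (chr7:4518305-4524229) lie on the minus strand 1922 bases apart, and *Tnni3* was 1.95 times *Tnnt1* per kb of exon in wild type and 1.81 times in null. *Tnni2* (chr7:142441808-142444410) and *Tnnt3* (chr7:142498836-142516009) lie on the plus strand with 54425 bases between them. *Lsp1*, a leukocyte actin-binding protein gene in that gap, had means of 878 and 837, above both of its neighbours. *Tnnc1* (chr14:31208312-31211729, plus strand) and *Tnnc2* (chr2:164777161-164779967, minus strand) lie alone.

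Overlapping genes had little weight beside the troponin genes. *Dnaaf3* shares 86 exonic bases with *Tnni3* on the same strand, and had a wild-type mean of 15.5 normalized counts, against 5772 for *Tnni3*. The noncoding gene *Prr33* overlaps *Tnnt3* on the other strand and shares no exonic base position with it, and had a mean of 3.76. The longest run of identical bases between annotated transcripts of any pair of troponin genes was 53 bases, between *Tnnt2* and *Tnni1*, and the next was 22, between *Tnni1* and *Tnni2*, both shorter than the 100-base reads.

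Of 21 genes listed as thin filament partners, some of them smooth muscle genes, 20 had a mean of at least 10, and their median log2 ratio was 0.012. The 4 myosin-binding proteins on that list (*Mybpc1*, *Mybpc2*, *Mybpc3* and *Mybphl*) belong to the thick filament, and over the other 17, 16 of them above this mean, the median was 0.0066. The ratio was 0.037 for *Actc1*, the cardiac actin, 0.013 for *Tpm1*, the main striated tropomyosin, 0.038 for *Mybpc3*, the cardiac myosin-binding protein C, and -0.044 for *Acta2*, the smooth muscle actin of the early heart. *Lmod1*, a leiomodin of smooth muscle, was the single gene of this list past 0.25, with means of 69.6 and 58.3. Its limma log2 difference was -0.24 (SE 0.13), with an adjusted p of 0.998. *Lmod2*, the cardiac leiomodin, had a log2 ratio of 0.13, *Mybphl* 0.11, *Mybpc1* -0.10, *Tpm2* 0.077 and *Mybpc2* 0.064. limma tested 7 of the partners and called 0, with 0 at an unadjusted p below 0.05 as well. Of all 10332 genes tested, 0.029% were called and 3.53% were below that unadjusted p, so 0 of 7 does not set the partners apart.

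Kinases and phosphatases that act on troponin were all within 0.25. Over 11 genes the median log2 ratio was 0.034. Among the abundant ones, the ratio was 0.025 for *Prkaca* and 0.072 for *Prkacb*, catalytic subunits of protein kinase A, which phosphorylates cardiac troponin I, and 0.037 for *Ppp1cb* and -0.0018 for *Ppp2ca*, catalytic phosphatase subunits. The others with the largest values were *Prkg1* at 0.13, *Pak1* at -0.11, *Prkca* at 0.10, *Tnni3k*, a kinase that binds cardiac troponin I, at 0.078 and *Prkce* at -0.066. limma tested 7 and called 0, with 0 at an unadjusted p below 0.05, beside shares of 0.029% and 3.53% over all 10332 genes tested.

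Transcription factors of heart muscle were likewise within 0.25. Over 14 genes the median log2 ratio was 0.036. It was 0.10 for *Tbx20*, 0.035 for *Gata4*, 0.034 for *Tead1* and 0.083 for *Mef2a*, the 4 most abundant of the list, and -0.13 for *Hand1*, -0.083 for *Tead4*, 0.072 for *Tbx5* and 0.060 for *Srf*. limma tested 3 and called 0, with 0 at an unadjusted p below 0.05, beside the same shares of 0.029% and 3.53% over all genes tested. Over the 45 genes of these lists with a mean of at least 10, 0 were higher and 1 was lower past 0.25, against 2.4% and 4.27% of all protein-coding genes.

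Among marker lists, 0 of 15 cardiomyocyte markers were past 0.25, with a median log2 ratio of 0.023. Of 13 skeletal muscle markers with a mean of at least 10, 2 were lower past 0.25, *Myh3* at -2.91 and *Ryr1* at -0.57, and both had their highest value in wild-type library 3. Without wild-type library 3 and null library 2, 1 of the 11 with recovered counts was lower and 1 higher. *Casq1* had 0.19, *Mylpf* -0.17, *Myl1* 0.14 and *Atp2a1* 0.14. All 9 neuronal markers above this mean were lower and all 9 erythroid markers were higher, with medians of -2.42 and 0.70. Among markers with recovered counts, 5 of 5 neuronal markers were lower past 0.25 with all libraries, and 1 of 5 without wild-type library 3 and null library 2, where their median was -0.0051. For the erythroid markers, 5 of 5 were higher with all libraries, and without the pair 1 was higher and 1 lower, with a median of 0.021. Lower values past 0.25 were also seen for 3 of 8 smooth muscle markers (*Myh11*, *Actg2* and *Lmod1*) and 3 of 7 cartilage markers (*Acan*, *Col9a1* and *Comp*). Among those with recovered counts, 3 of 4 smooth muscle markers were lower with all libraries, and also without the pair. The medians were -0.33 and -0.26. For cartilage, 3 of 4 were lower with all libraries and 2 of 4 without the pair, with medians of -0.33 and -0.23. The 1 lung epithelium marker above this mean, *Krt8*, was at -0.052. limma called 0 of the markers it tested at an adjusted p of 0.05, as it did of the lists before them, and its voom form called 0 of all these as well. *Comp* and *Gata1* were below an unadjusted p of 0.05 in limma and in its voom form, as were 3.53% and 3.39% of all genes tested.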

How the data were processed

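The labels assigned 5 wild-type and 5 *Nos1ap* null hearts to their groups by title. The authors trimmed reads with Trimmomatic 0.36, estimated gene counts with RSEM 1.2.31 and STAR on GENCODE transcripts of GRCm38, and compared groups with DESeq 1.24.0. As signal values, the authors deposited the normalized count of each gene averaged over the libraries of each group. Its columns of fold changes and p-values from the authors' comparison were not used.

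For single libraries, counts were derived from the digits of each mean below 1000, as whole numbers that give that mean. All sets were searched below a mean of 200. Otherwise the nearest set to equal expression was taken, if at most 0.01 others were expected as near. Above that mean, genes whose libraries differ widely could thus be left without counts. Sets were found for 98.9% of wild-type and 99.1% of null means below 1000. Those of *Tnnt3* and *Tnnc2* are the only ones possible, and those of *Tnni2* are nearest sets. RSEM counts need not be whole, so the derivation rests on the authors having used whole counts. On simulated whole counts, sets were found for 95.4% of wild-type and 95.6% of null means below 1000, and 0 were wrong. That simulation drew whole counts of small spread, so it cannot test this premise or genes whose libraries differ widely. The derived values carry no replicate numbers of the labels. The labels do not say whether libraries share litters.

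The limma test (version 3.58.1, R 4.3.3) took protein-coding genes with derived counts and a mean of 10 or more, on log2(normalized count + 1), with trended robust moderation and Benjamini-Hochberg adjustment over all genes tested. Single values were compared by exact permutation tests over 252 arrangements. Exon lengths and coordinates are from GENCODE M21 (GRCm38), and promoters from RefSeq (GRCm38.p6), where 6 of 8 genes matched. The troponin genes, the lists and the tests were chosen with earlier results of these data known. Genes named are the troponin genes, *Nos1ap*, list genes past a threshold or among the 6 largest ratios or 4 most abundant (for the non-cardiac lists in part), the 5 genes most like *Tnni2* and *Tnnt3*, and genes between paired troponin genes. Others (*Myod1*, *Actn3*, *Nkx2-5*, *Gata1*, *Dnaaf3*, *Prr33* and those flagged) were chosen after their values were seen. Alternatives changed scaling, pseudocount (0.5), filter (a mean of 1 or 50), gene types, voom, gene lengths, the ratio threshold and the libraries left out.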

Additional observations from a re-analysis of the deposited data

Results flagged for a closer look

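Of 46 groups of 5 values examined, 12 had a library whose gap to the nearest other, over the range, exceeded Dixon's 95% critical value of 0.71. About 1 in 20 groups of independent, normally distributed values would pass it. The groups here share libraries and genes, some hold values of 0, and flagged genes were chosen after their values were seen. The count of 12 therefore cannot be set against that rate. None was a value of a troponin gene. In wild type, library 3 was far above the next library for *Stmn2* (575 against 37.8 normalized counts), the sum of neuronal markers (1730 against 117), *Myh3* (103 against 4.35), *Myod1* (13.2 against 0.968), *Myog* (18.3 against 4.84), *Myh8* (33.6 against 17.4), *Ryr1* (31.6 against 13.9), *Myh11* (206 against 69.1) and the sum of smooth muscle markers (842 against 583). In null, library 2 was far above the next for *Rhag* (201 against 43.6) and *Klf1* (92.5 against 30.1) and far below it for the sum of cartilage markers (280 against 520).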

How the results depend on the processing

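No paired analysis was possible because the deposited means carry no replicate numbers. Of 141 alternative values, 113 kept their direction and their side of the threshold or stayed within the counting error. limma called 3 genes in every alternative except with only-possible sets of counts (2 genes, 4711 tested, *Tnni2* not among them). Leaving out 1 library at a time gave log2 differences of 0.0095 to 0.13 for *Tnni2* and 0.13 to 0.40 for *Tnnt3*, and differences of 1.46 to 19.5 and 4.38 to 19.2 normalized counts. For *Tnnc2* the difference ran from -1.19 to 0.0779. Its direction reversed without wild-type library 3 (0.0779) and without that library and null library 2 together (0.287), where 5 of 8 wild-type read pairs are removed.

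Gene length moved the shares by construction. With the longest coding transcript, coding length and no length, the share of *Tnnt2* was 91.1%, 91.0% and 92.1% in wild type and 90.7%, 90.6% and 91.7% in null, and that of *Tnni1* was 65.2%, 72.7% and 70.4% in wild type and 65.1%, 72.7% and 70.3% in null. At an absolute log2 ratio of 0.5 the count of thin filament, kinase and regulator genes past it was 0 in place of 1, and leaving out 1 library gave 0 to 1 among genes with recovered counts. Of the 5 genes most like *Tnni2*, Spearman correlation kept 1 and leaving out wild-type library 3 kept 2. For *Tnnt3*, each kept 1. Without null library 2, 3 were kept for *Tnni2* and 0 for *Tnnt3*, and without both libraries 2 and 1. The 5 abundant troponin genes have no values of single libraries, so their spread between embryos is unknown, and *Tnnc2* is limited by its depth.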
